A study of Mus musculus with 62 samples.

Results

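The 10 transcripts that carry calcium release and calcium reuptake in muscle across 62 RNA-seq libraries of this series were Atp2a1, Atp2a2, Sln, Pln, Casq1, Casq2, Pvalb, Ryr1, Trdn and Cacna1s. They were taken by gene symbol, and all 10 were present in each of the 4 deposited tables, which list 29239, 21886, 21039 and 17896 genes. The libraries came from mouse muscle or muscle cells in which ChREBP, a sugar-responsive transcription factor encoded by Mlxipl, was deleted or overexpressed. Floxed littermates without Cre (F/F) and mice with the same floxed allele plus Mck-cre (ChMKO) gave untreated gastrocnemius (GC) and soleus (SOL), with 5 libraries of each muscle and genotype, and with the same numbers on the GC and SOL libraries. A second cohort gave GC of F/F and ChMKO mice under normoxia (Norm), after 2 weeks in a hypoxic chamber set to about 5500 m (Hypo), or after 3 months on a diet high in fructose (HFrD), with 4 mice in each of the 6 groups. The study took Norm as the reference of the diet as well, and since the exposures differ in length, HFrD and Norm mice may also differ in age and experiment. A further set was GC of C57BL6/J mice injected with AAV9 carrying GFP or ChREBP, with 5 libraries each. The last was C2C12 myoblasts, a mouse muscle cell line, carrying an empty vector or ChREBP (ChREBP-OE) and differentiated to day 7, with 4 libraries each. Male young adult mice were used. Mck-cre is active in striated muscle fibers, so other cells in the tissue keep ChREBP, and the deletion removes 1 exon, so reads from the remaining exons still count. The AAV used the ubiquitous CMV promoter, and each C2C12 arm was a single stable line.

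Contraction of a muscle fiber begins when the voltage sensor in the transverse tubule, whose pore subunit is Cacna1s, opens the ryanodine receptor Ryr1 in the sarcoplasmic reticulum. Calcium leaves a store held by calsequestrin, which is Casq1 in fast fibers and Casq1 with Casq2 in slow fibers, and triadin (Trdn) anchors calsequestrin to the release channel. Relaxation follows as parvalbumin (Pvalb) binds free calcium and the SERCA pumps return it to the store. Atp2a1 encodes SERCA1, the pump of fast fibers, and Atp2a2 encodes SERCA2, whose SERCA2a form is the pump of slow fibers and heart. Sarcolipin (Sln) and phospholamban (Pln) are small membrane peptides that lower SERCA activity.

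In GRCm38, the build of the untreated GC and SOL table, the pumps lie at chr7:126445860-126463103 (Atp2a1) and chr5:122453513-122502225 (Atp2a2), and their peptide inhibitors at chr9:53850251-53853849 (Sln) and chr10:53337686-53345999 (Pln). Casq1 lies at chr1:172209894-172219895, Casq2 at chr3:102086420-102146514 and Pvalb at chr15:78191117-78206351. Ryr1 lies at chr7:29003340-29125179, Trdn at chr10:33083483-33476709 and Cacna1s at chr1:136052805-136119822.

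The complete coding sequences of the pump inhibitors are short enough to be read whole, and they are shown because Sln was among the members that differed most between soleus and gastrocnemius while Pln stayed near the detection limit. Sln is encoded by a single coding exon on the plus strand, chr9:53853473-53853565 without its stop codon, and has 31 codons. Pln is encoded at chr10:53343864-53344019 on the plus strand and has 52 codons. Both were read from the GRCm38 reference transcripts, and capitals mark the start and stop codons.
Sln: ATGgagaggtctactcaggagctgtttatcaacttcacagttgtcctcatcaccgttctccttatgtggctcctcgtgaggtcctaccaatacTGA
Pln: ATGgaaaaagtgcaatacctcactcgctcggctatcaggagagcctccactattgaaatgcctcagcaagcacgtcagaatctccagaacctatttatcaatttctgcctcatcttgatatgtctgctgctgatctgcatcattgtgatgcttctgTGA

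Promoters are shown for the calsequestrin pair, whose members differed in opposite directions between muscles, and for Pvalb, which had the lowest soleus to gastrocnemius ratio. RefSeq (GRCm38.p6) windows of 250 bases upstream of a start were matched for 7 members, giving 8 windows. The windows below are Casq1 (chr1:172219896-172220145, minus strand), Casq2 (chr3:102086165-102086414, plus strand) and the first of the Pvalb starts (chr15:78206401-78206650, minus strand). Capitals mark E-boxes, CANNTG, bound by myogenic factors among others, and sites for MEF2, a muscle transcription factor.
Casq1: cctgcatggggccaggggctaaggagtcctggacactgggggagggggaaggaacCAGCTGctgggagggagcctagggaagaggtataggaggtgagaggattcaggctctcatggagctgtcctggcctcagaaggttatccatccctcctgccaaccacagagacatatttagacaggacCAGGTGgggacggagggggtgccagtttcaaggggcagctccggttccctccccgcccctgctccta
Casq2: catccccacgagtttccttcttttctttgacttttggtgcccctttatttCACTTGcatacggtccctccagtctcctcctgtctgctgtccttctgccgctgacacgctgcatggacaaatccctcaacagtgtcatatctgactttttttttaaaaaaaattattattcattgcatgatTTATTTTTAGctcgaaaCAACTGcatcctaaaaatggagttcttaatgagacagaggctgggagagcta
Pvalb: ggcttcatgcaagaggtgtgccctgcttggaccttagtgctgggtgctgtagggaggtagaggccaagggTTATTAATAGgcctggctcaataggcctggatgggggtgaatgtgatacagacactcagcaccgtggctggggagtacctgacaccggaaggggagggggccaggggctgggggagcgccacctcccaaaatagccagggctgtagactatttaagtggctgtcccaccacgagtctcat
Casq1 held 2 E-boxes and no MEF2 site, Casq2 held 2 E-boxes and 1 MEF2 site, and Pvalb held 1 MEF2 site and no E-box. Both strands were searched, and the motifs did not overlap in these windows. Across 32851 promoter windows of the same length, 66.2% held an E-box and 2.92% held a MEF2 site. The CACGTG E-box, the form found in pairs in ChREBP response elements, was in none of the 8 member windows and in 6.02% of all windows. These are letter matches only.

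All values below are FPKM, fragments per kilobase of transcript per 1e6 fragments, as deposited. The unit is per length. Orders of levels and tests are given within a table only, and levels also depended on the library set in the hypoxia and diet table. A gene passed a comparison when limma on log2(FPKM + 1) with Benjamini-Hochberg adjustment over all genes tested gave an adjusted p under 0.05, and fold changes are on that log2(FPKM + 1) scale, which understates low genes. Library depth was 14473170 to 23460515 reads in the hypoxia and diet table, where whole reads could be recovered, and was estimated at 15600000 to 20100000 in the GC, SOL and AAV tables. Depth was unknown for C2C12. Skeletal fiber genes were abundant in every muscle library. Mlxipl fell in ChMKO GC under Norm, Hypo and HFrD (adjusted p = 0.00297 to 0.00655). In the untreated muscles it did not pass, at 15.7 ± 2.53 in ChMKO against 24.9 ± 4.10 (SD, n = 5) in F/F GC (adjusted p = 0.413). The GC groups did not overlap, with the highest ChMKO library at 18.5 and the lowest F/F library at 20.4. In SOL they overlapped (log2 -0.47, adjusted p = 0.384). The study reported strongly lower ChREBP mRNA by qRT-PCR in GC and SOL of ChMKO mice, with matching Western blots. Mlxipl was 83.5 ± 19.1 in AAV-ChREBP GC against 11.3 ± 0.749 in AAV-GFP GC.

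The 24 hypoxia and diet libraries fell into a pair of sets of 12 that the labels do not name, called set A and set B here. They were separated by the first principal component of all other genes, which held 61.4% of the variance against 8.68% for the next. All 8 HFrD libraries were in set A and all 8 ChMKO libraries of Norm and Hypo were in set B. The F/F Norm and F/F Hypo groups each had 2 libraries in A and 2 in B. Hypo against Norm thus lay within set B in ChMKO and was balanced over the sets in F/F, HFrD ChMKO against HFrD F/F lay within set A, and HFrD against Norm in ChMKO was between the sets. What the sets are was not tested, and the members are given with and without them.

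The muscles differed in every member. Fast-isoform transcripts dominated both muscles, but GC held almost no slow isoform while SOL held a substantial share of it. In F/F mice, 10 of 10 members passed between SOL and GC, 4 higher in SOL and 6 lower, against 50.4% of all genes tested (37.9% higher and 12.5% lower). The question of this comparison is what a slow muscle expresses relative to a fast one, within an untreated cohort.

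Atp2a1, the fast pump, was the most abundant member in both untreated muscles, as in HFrD GC, whereas Pvalb had the highest group mean in Norm and Hypo GC of both genotypes. In F/F GC it was 12347, 10391, 12278, 12197 and 11178 FPKM, and in F/F SOL 5440, 3995, 4660, 3827 and 2619. The ranges were far apart, with a mean in SOL 0.352 times that in GC (log2 fold change -1.54, SE 0.19, adjusted p = 9.04e-05). The SOL libraries were spread more widely than the GC libraries, with a SD of 1047 on a mean of 4108 against 864 on 11679.

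Atp2a2, the slow pump, was 8.37, 50.5, 6.22, 19.7 and 18.8 FPKM in F/F GC and 1031, 1258, 1133, 1241 and 1159 in F/F SOL. The highest GC library, number 58, was still far below the lowest SOL library. SOL was 56.2-fold higher by the group means (log2 6.09, SE 0.43, adjusted p = 2.96e-06), and 87.8-fold without library 58. The relative spread between libraries was wide in GC and narrow in SOL, and the GC library with the highest Atp2a2 also had the highest slow myosin Myh7 (37.6 FPKM, with the lowest at 0.202).

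Expressed as a share of the pump pair, Atp2a2 made up 0.186% ± 0.175 (SD, n = 5) of Atp2a1 plus Atp2a2 in F/F GC and 22.9% ± 5.57 in F/F SOL. The ratio of the fast to the slow pump was 564 in GC and 3.53 in SOL. Without GC library 58 the share in GC was 0.112% ± 0.0613 and the ratio 904. The order of the pumps was thus the same in both muscles, with Atp2a1 above Atp2a2 also in SOL.

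**Figure D1:**
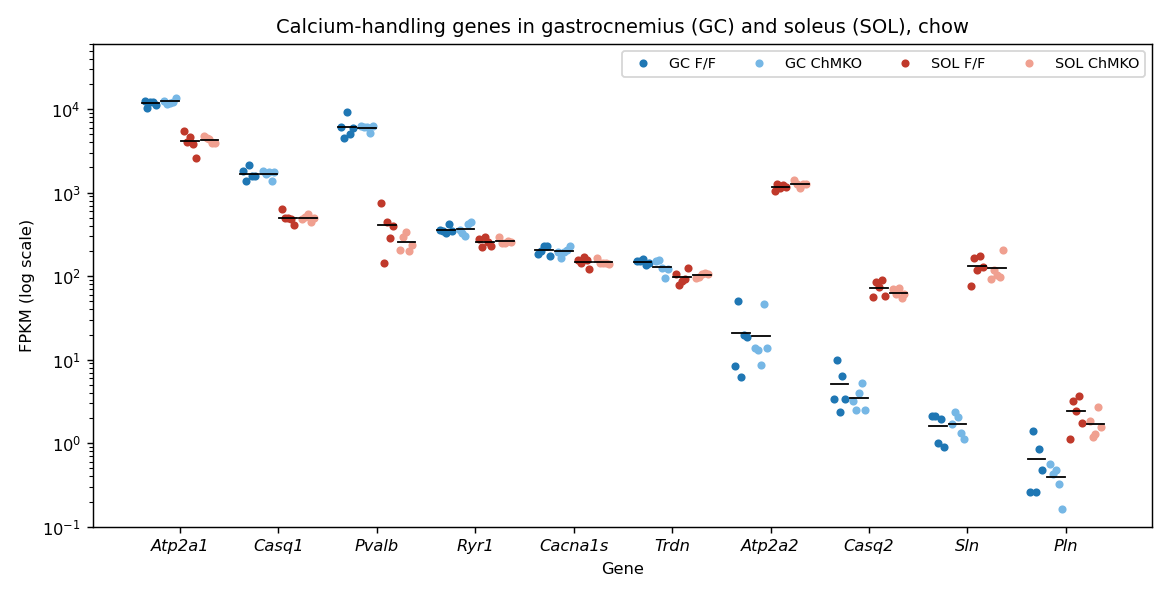
FPKM of the 10 members (log axis) in each library of untreated GC and SOL, F/F and ChMKO; each point is a library, with 5 in each group, and the lines are group means. The GC and SOL points of Atp2a2, Sln, Casq2 and Pvalb are separated by more than 1 decade in the group means, and the genotypes overlap throughout.

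The pump inhibitors followed the slow pump, at very different levels. Sln was 2.12, 2.11, 1.02, 1.95 and 0.910 FPKM in F/F GC and 75.5, 164, 117, 174 and 130 in F/F SOL. No library overlapped, and SOL was 81.5-fold higher (log2 5.64, SE 0.23, adjusted p = 8.15e-08). Pln was the lowest member in both muscles, at 0.257, 1.40, 0.261, 0.865 and 0.477 in GC and 1.12, 3.19, 2.44, 3.65 and 1.76 in SOL. Pln also rose in SOL (log2 1.04, SE 0.24, adjusted p = 0.00378), but it was the 1 member whose GC and SOL libraries overlapped, against 35.9% of all genes without overlap.

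Of the calsequestrins, Casq1 was 1807, 1360, 2141, 1560 and 1563 FPKM in F/F GC and 636, 500.5, 491, 479 and 408 in F/F SOL. All SOL libraries were below all GC libraries, at 0.298 times the mean (log2 -1.74, SE 0.15, adjusted p = 8.94e-06). Casq2, the cardiac and slow isoform, went the other way, from 3.42, 9.91, 2.37, 6.45 and 3.40 in GC to 56.0, 85.8, 73.4, 90.5 and 57.2 in SOL. That was 14.2-fold higher (log2 3.70, SE 0.29, adjusted p = 5.47e-06). Casq2 was 0.330% ± 0.246 of the pair in F/F GC and 12.8% ± 2.98 in F/F SOL, so Casq1 was the main calsequestrin transcript of both muscles.

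Pvalb was the second most abundant member in untreated GC, at 6049, 4531, 9175, 5042 and 5866 FPKM in F/F mice. In F/F SOL it was 743, 144, 447, 287 and 399. SOL was at 0.0659 times GC (log2 -4.07, SE 0.37, adjusted p = 1.25e-05), with no overlap and with a wide spread among the SOL libraries.

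The release channel and its partners differed the least. Ryr1 was 360 ± 34.0 in F/F GC and 256 ± 29.5 in F/F SOL (log2 -0.49, SE 0.10, adjusted p = 0.0025). Cacna1s was 203 ± 25.3 and 149 ± 17.0 (log2 -0.44, SE 0.11, adjusted p = 0.00719). Trdn was 148 ± 10.5 and 97.3 ± 17.6 (log2 -0.62, SE 0.12, adjusted p = 0.00141). The members that anchor or open the store therefore all fell in SOL, by less than 1 on the log2 scale, whereas the median of all genes tested was 0.18. After median-of-ratios scaling that median was 0.01, and they were at -0.72 (Ryr1), -0.67 (Cacna1s) and -0.85 (Trdn), so the direction of these did not depend on the scaling. The background did, with 22.0% of all genes higher and 22.1% lower.

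By group mean, the F/F GC levels ran from Atp2a1 through Pvalb, Casq1, Ryr1, Cacna1s, Trdn, Atp2a2, Casq2 and Sln down to Pln. Neighbours in that order did not overlap except Atp2a2 with Casq2 and Sln with Pln. In F/F SOL the order was Atp2a1, Atp2a2, Casq1, Pvalb, Ryr1, Cacna1s, Sln, Trdn, Casq2 and Pln. There the ranges of Casq1 with Pvalb, of Pvalb with Ryr1, of Cacna1s with Sln, of Sln with Trdn and of Trdn with Casq2 overlapped, so the middle of the SOL order is not resolved.

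ChMKO mice gave the same directions in all 10 members. Between SOL and GC of ChMKO mice 10 of 10 members passed, against 57.9% of all genes tested, and 9 had no overlap, against 43.0%. Atp2a2 was 66.4-fold higher (log2 6.22), or 103-fold without GC library 72, Sln 72.1-fold (log2 5.47), Casq2 18.2-fold (log2 3.87), and Pvalb was at 0.0432 times GC (log2 -4.55). Casq1 (log2 -1.76), Atp2a1 (log2 -1.52), Ryr1 (log2 -0.49) and Cacna1s (log2 -0.42) fell, and Pln rose (log2 0.95). Trdn passed narrowly in ChMKO (log2 -0.32, adjusted p = 0.0313) with overlapping libraries. It no longer did without the filter on low values (adjusted p = 0.0639) or with the library number as a block (0.0626). Nor did it pass without either muscle's library 59 or library 60 (0.0617 to 0.0733). The difference between the genotypes in the muscle contrast was tested as an interaction with the shared library number, taken as the mouse, as a random effect. None of the 10 members passed and 0 reached an unadjusted p under 0.05, while 0.00759% of all genes passed and 5.99% had an unadjusted p under 0.05. The largest interaction estimate was that of Pvalb, -0.48 with a 95% interval from -1.33 to 0.36.

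**Figure D2:**
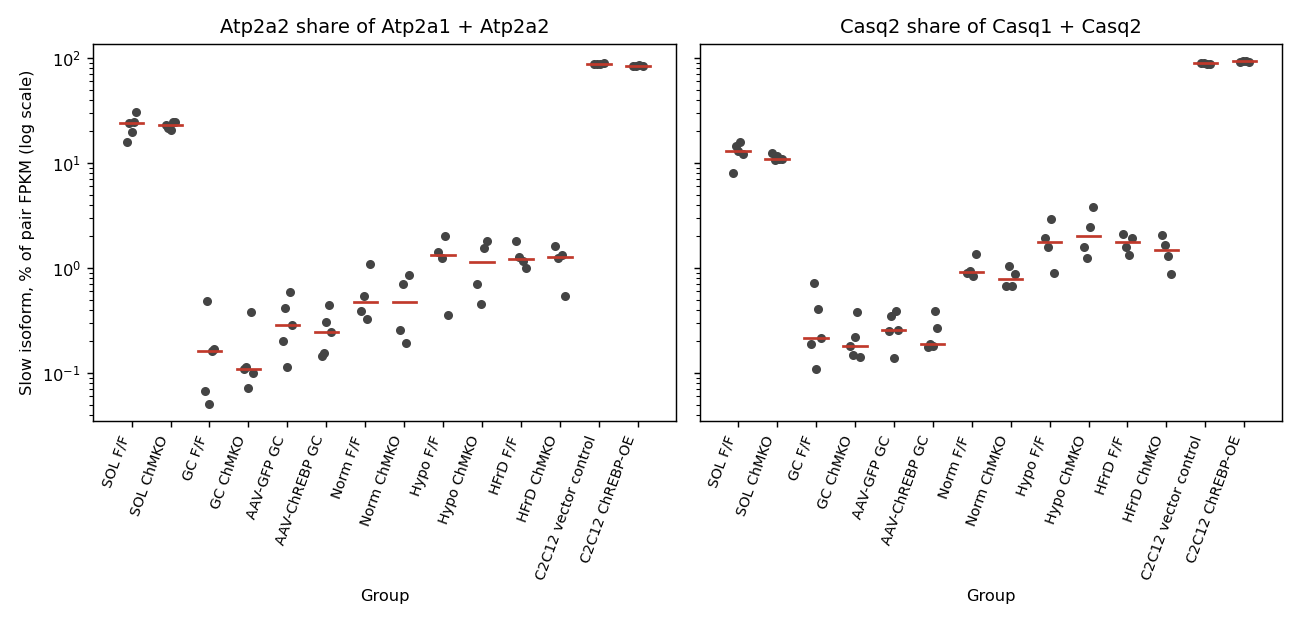
Slow isoform as a percentage of the isoform pair (log axis), Atp2a2 of Atp2a1 plus Atp2a2 and Casq2 of Casq1 plus Casq2, with 1 point per library in all 14 groups and lines at the group medians. Untreated F/F GC lies at 0.0506 to 0.484% for the pump and F/F SOL at 15.9 to 30.7%, while C2C12 libraries lie at 83.8 to 89.2%.

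Marker sums of other cell types differed between the muscles, with no test. The summed level of 6 cardiomyocyte markers was 1.63 to 4.58 FPKM in F/F GC and 43.4 to 59.8 in F/F SOL, most of it Myh6 (mean 45.1 in SOL), which skeletal fibers can also express. The heart channel gene Ryr2 was at most 0.0239 in F/F SOL, the heart troponin gene Tnni3 averaged 0.543 there and Nppb was at 0. The 4 endothelial markers summed to 29.3 to 65.2 in F/F GC and 95.5 to 153 in F/F SOL. Their part in the member differences was not tested. In whole muscle, fewer fibers of a type and less RNA per fiber cannot be told apart.

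Of 62 other calcium genes listed by role, 53 were tested in F/F SOL against GC. Of these, 17 rose, 24 fell and 12 did not pass, with a median log2 fold change of -0.09 against 0.18 over all genes, of which 37.9% rose and 12.5% fell. After median-of-ratios scaling, 11 of the list rose and 28 fell, against 22.0% and 22.1% of all genes. The triad and release genes had 1 higher and 8 lower of 14 tested (median -0.44), the side on which Ryr1, Trdn and Cacna1s lay. The mitochondrial uptake genes had 5 higher and 1 lower of 6 tested (median 0.50), and the sensors and calcineurin genes 5 higher and 9 lower of 17.

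Among pump regulators, Strit1, which encodes the SERCA-activating peptide DWORF, was 17.8 ± 5.11 FPKM in F/F SOL and 0.214 ± 0.215 in F/F GC (log2 3.93, adjusted p = 1.56e-07). Mrln, which encodes the SERCA-inhibiting peptide myoregulin, was 22.0 ± 4.39 and 89.3 ± 28.3 (log2 -1.94, adjusted p = 2.45e-05), the opposite direction to Sln. Rcan1 (log2 1.99) and Rcan2 (log2 1.91), regulators of the phosphatase calcineurin, rose. Camk2a, a calmodulin-dependent kinase subunit, fell (log2 -2.39), as did Cacng1, the gamma subunit of the voltage sensor complex (log2 -1.67). The same 6 genes led in ChMKO, where Strit1 was at log2 3.63 and Camk2a at log2 -2.73.

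Across the 20 untreated libraries, the genes most like Atp2a2 among 5982 genes of at least 5 FPKM were Gm31251 (Pearson r = 0.9958), the slow troponin gene Tnnt1 (0.9950) and the slow tropomyosin gene Tpm3 (0.9949). Those most like Sln were the myosin gene Myh6 (0.9887), Gm32672 (0.9883) and Gsto1 (0.9880). Those most like Pvalb were the fast myosin-binding gene Mybpc2 (0.9965), Fam71e1 (0.9948) and Tspan8 (0.9946). These correlations are descriptions, since the libraries are split by muscle and any gene that separates GC from SOL scores high.

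No member was shown to differ between ChMKO mice and their F/F littermates. The question is whether ChREBP is needed for their expression, and 0 members passed in each of the 5 genotype comparisons. In untreated GC, 0.0236% of all genes passed, and 0 of 10 members had an unadjusted p under 0.05, against 4.63% of all genes. Atp2a1 was 12579, 11562, 11882, 11995 and 13661 FPKM in ChMKO GC, within 0.08 log2 units of F/F and with a 95% interval from -0.19 to 0.35. For Atp2a2 the interval was much wider, from -1.18 to 1.17 around -0.01, with single libraries far apart (13.7, 13.2, 8.61, 46.2 and 13.7 in ChMKO GC). The other intervals in GC reached furthest for Casq2 (-0.34, from -0.99 to 0.31), Trdn (-0.21, from -0.48 to 0.05) and Pln (-0.21, from -0.58 to 0.17). Sln (0.06, from -0.33 to 0.45), Pvalb (-0.01, from -0.40 to 0.39), Casq1 (from -0.29 to 0.29), Ryr1 (0.03, from -0.22 to 0.29) and Cacna1s (-0.03, from -0.27 to 0.20) also overlapped between the genotypes.

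In untreated SOL, 0.0225% of all genes passed and again 0 of 10 members, 0 of them at an unadjusted p under 0.05, against 9.74% of all genes. Atp2a2 was 1407, 1250, 1146, 1271 and 1259 FPKM in ChMKO SOL (0.12, interval from -0.06 to 0.30). Sln was 92.5, 120, 102, 97.4 and 207 (-0.10, interval from -0.67 to 0.46). Pvalb was 208, 297, 338.5, 201 and 238, on average 0.634 times F/F, with an interval from -1.27 to 0.29. The fast pump was again close, at 4697, 4526, 4415, 3922 and 3917 (0.10, interval from -0.27 to 0.47). For Pln the difference was -0.30 (from -0.77 to 0.16) and for Casq2 -0.17 (from -0.49 to 0.15). The intervals of Casq1 (-0.25 to 0.23), Ryr1 (-0.16 to 0.23), Cacna1s (-0.20 to 0.19) and Trdn (-0.16 to 0.33) were narrower.

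In the second cohort, 0 of 9 members tested passed between ChMKO and F/F under Norm (0.00922% of all genes passed), Hypo (0.00941%) or HFrD (0.0190%), and Pln was below the minimum mean of 0.5 FPKM. A model on the recovered reads, limma-voom, also gave 0 in each. Pvalb under Norm was the only member with an unadjusted p under 0.05 (log2 0.35, adjusted p = 0.418), where 11.1% of all genes had one, and with the library set as a term it was at 0.16. Under Hypo and HFrD 0 members had one, against 5.27% and 7.36% of genes. Trdn had the largest estimates, -2.20 under Norm and -2.29 under Hypo, and with the library set as a term they were 0.01 and -0.01. Under HFrD, where all 8 libraries were in set A, Trdn was 249, 247, 258 and 265 in ChMKO and 243, 245, 238 and 241 in F/F. Those groups did not overlap, as in 4.47% of all genes, and the difference did not pass (adjusted p = 0.746).

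Trdn was the member that marked the library sets. In the F/F libraries of Norm and Hypo, 4 in each set, it was 263, 246, 252 and 267 FPKM in set A and 14.8, 7.92, 8.09 and 12.2 in set B. Each set held 2 Norm and 2 Hypo libraries, so the gap was present within each condition. The log2 difference of 4.50 was the second largest in size among 10739 genes, after F830016B08Rik and ahead of the muscle genes Xirp2 and Nexn. Over all 24 libraries Trdn was 238 to 267 in set A and 4.57 to 14.8 in set B. Because the sets were defined from the data, no test is given.

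The other tables showed no such split, with Trdn between 78.0 and 162 FPKM over all 20 untreated GC and SOL libraries and between 370 and 437 over the AAV libraries. Trdn was read from 691 to 53758 reads per library in the hypoxia and diet table, so even its lowest value rests on 691 reads. Its transcript sequence is AT-rich, with 36.8% GC, and 0.9% of genes are lower. Genes at least 1 log2 unit higher in set A had a median GC content of 40.4% and a median length of 5232 bases. Those at least 1 lower had 53.8% and 2080 bases, and all genes had a median of 49.7%. The part of base composition or length in the Trdn gap was not tested.

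The other members differed between the sets much less and mostly the other way. Casq1 was 917 ± 65.2 in set A and 1360 ± 139 in set B in the F/F libraries of Norm and Hypo (log2 -0.56), without overlap. Pvalb was 5938 to 6743 and 7181 to 11165 (log2 -0.48), also without overlap, and over all 24 libraries both stayed separated by set. Casq2 (-0.58), Sln (-0.56), Cacna1s (-0.35), Atp2a1 (-0.35) and Atp2a2 (-0.21) were lower in set A, of which Cacna1s and Atp2a1 were also without overlap, and Ryr1 was nearly equal (0.06). Pln, too low to be tested here, was higher in set A, with a median of 0.401 against 0.251 in set B over all 24 libraries. Its ranges overlapped. The median over all genes was -0.14, 43.4% of genes had no overlap between the sets and 3.93% differed by at least 1.

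**Figure D3:**
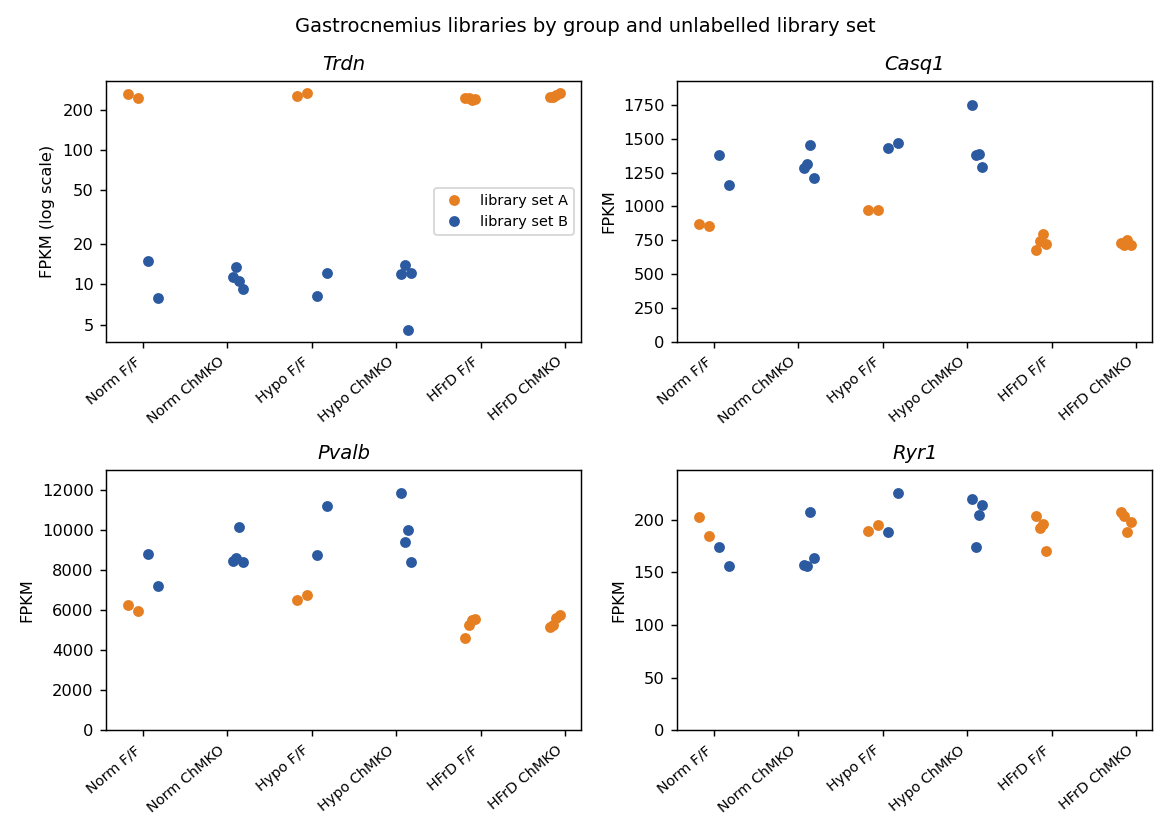
FPKM of Trdn (log axis), Casq1, Pvalb and Ryr1 (linear axes) in the 24 hypoxia and diet libraries by group, with 1 point per library and library sets A and B in different colors. Trdn lies at 238 to 267 in every set A library and at 4.57 to 14.8 in every set B library, whichever the genotype or treatment.

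The slow calsequestrin Casq2 rose under hypoxia in GC of ChMKO mice, where all 8 libraries are of set B. Casq2 was 8.78, 13.8, 9.85 and 10.8 FPKM in Norm and 28.2, 17.4, 34.6 and 51.1 in Hypo. Every Hypo library was above every Norm library, at 3.04-fold the mean (log2 1.44, SE 0.27, adjusted p = 0.0415). It was the only 1 of 9 members to pass, against 0.890% of all genes tested, and the only one without overlap, against 9.81%. The call was lost in 6 of 8 fits that left out 1 library, namely any of the 4 Norm libraries or the Hypo libraries at 28.2 and 34.6 (adjusted p = 0.075 to 0.115), and without the filter on low values (adjusted p = 0.127), with log2 fold changes of 1.35 to 1.55 in these fits. Limma-voom on the recovered reads kept it (log2 1.53, adjusted p = 0.0353).

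Atp2a2 moved with Casq2 in size but not past the threshold. In ChMKO GC it was 17.2, 42.3, 14.6 and 52.9 in Norm and 64.5, 33.7, 137 and 146 in Hypo (log2 1.53, 95% interval 0.40 to 2.67, adjusted p = 0.197). The groups overlapped through a single Hypo library, which was also the lowest of its group in Casq2. The slow myosin Myh7 was 33.3 ± 26.8 against 5.03 ± 5.57 (log2 2.75, adjusted p = 0.165). The fast pump Atp2a1 (log2 0.32, adjusted p = 0.213) and Cacna1s (log2 0.35, adjusted p = 0.217) were also above Norm on average, as was Sln, at 3.04-fold the mean (log2 0.78, interval from 0.02 to 1.55, adjusted p = 0.319) but 1.74-fold without the Hypo library at 5.51. At an unadjusted p under 0.05 there were 5 members, Casq2 included, against 15.1% of all genes. With all 6 groups and the library set in a single fit, which used the spread of all 24 libraries, Casq2 (adjusted p = 0.00745), Cacna1s (0.0288) and Atp2a1 (0.0440) passed, against 6.99% of all genes.

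In F/F mice the same comparison gave 0 of 9 members past the threshold and 0.00% of genes in all, with 2 members and 3.83% of genes at an unadjusted p under 0.05. Limma-voom on the recovered reads also gave 0 members. Casq2 was 7.85 and 8.05 (set A) and 11.6 and 16.0 (set B) in Norm, and 19.2 and 15.7 (set A) and 43.1 and 13.3 (set B) in Hypo. Atp2a2 was 24.2 and 29.0 (set A) and 21.1 and 68.8 (set B) in Norm, and 82.7 and 74.1 (set A) and 157 and 33.4 (set B) in Hypo. Within set A both Hypo libraries were above both Norm libraries, whereas within set B they overlapped.

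The F/F estimates were log2 0.91 for Casq2 (95% interval 0.09 to 1.73) and 1.22 for Atp2a2 (0.10 to 2.34), each with an adjusted p of 1.00. With the library set as a term the adjusted p was 0.265 and 0.311. The split by set was chosen after seeing the data. In set A alone, 2 libraries against 2, Casq2 (log2 1.04, adjusted p = 0.0205) and Atp2a2 (log2 1.53, adjusted p = 0.00933) passed, against 0.748% of all genes. In set B alone the values were 0.78 and 0.91, which did not pass (adjusted p = 0.68 and 0.75). The genotype by hypoxia interaction did not pass for any member (0 of 9, and 0 at an unadjusted p under 0.05, against 0.00% and 1.23% of all genes), and for Casq2 it was 0.53 with an interval from -0.51 to 1.57. The hypoxia change of Casq2 was thus not shown to differ between ChMKO and F/F mice.

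**Figure D4:**
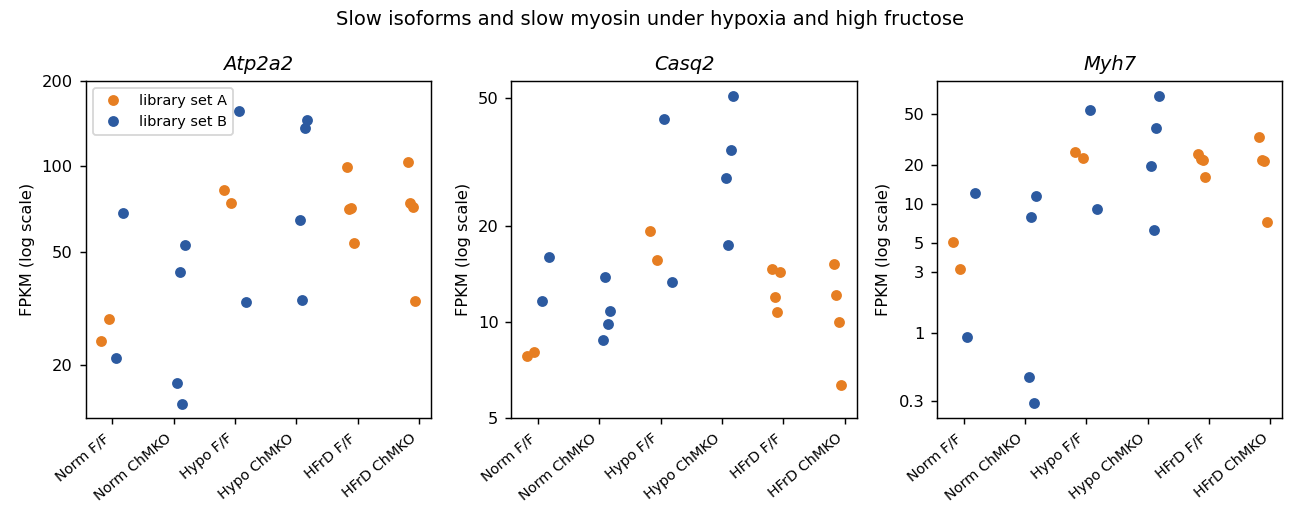
FPKM (log axis) of Atp2a2, Casq2 and the slow myosin Myh7 in GC under Norm, Hypo and HFrD, with 1 point per library, colored by library set. In ChMKO mice the Casq2 points of Hypo (17.4 to 51.1) lie above those of Norm (8.78 to 13.8), while the Atp2a2 points overlap.

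The high-fructose diet comparison in ChMKO mice set 4 set A libraries against 4 set B libraries, so the diet and the library set cannot be told apart. Of 9 members, 4 passed against 64.0% of all genes tested. Trdn was 254.5 ± 8.13 in HFrD and 11.1 ± 1.78 in Norm (log2 4.41, adjusted p = 5.16e-09), and Atp2a2 was 70.9 ± 28.7 and 31.7 ± 18.8 (log2 1.23, adjusted p = 0.0377). The call of Atp2a2 was lost without the filter on low values (adjusted p = 0.0694) and without any of the HFrD libraries at 104, 74.2 and 71.8 or the Norm libraries at 17.2 and 14.6 (0.079 to 0.101). Its log2 fold change was 0.94 to 1.23 in these fits. Casq1 was 728, 718, 751 and 713 in HFrD and 1282, 1310, 1451 and 1212 in Norm (log2 -0.85, adjusted p = 4.73e-06). Pvalb was 5144, 5265, 5589 and 5741 and 8446, 8608, 10146 and 8369 (log2 -0.71, adjusted p = 5.91e-05). In the fit of all 6 groups with the library set, 0 of the 4 passed, against 0.345% of all genes, and Trdn was -0.085, Pvalb -0.23, Casq1 -0.28 and Atp2a2 1.43 (adjusted p = 0.931 for Trdn and 0.409 for Atp2a2).

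In F/F mice, Norm holds both sets and HFrD set A only. Of the members 0 of 9 passed, and 0.00% of all genes, with 3 members and 23.6% of genes at an unadjusted p under 0.05, and limma-voom gave 0 members. Atp2a2 was 99.4, 70.9, 71.3 and 53.6 in HFrD, above all Norm libraries except 1 (68.8), with log2 1.15, a 95% interval of 0.37 to 1.94 and an adjusted p of 0.155. In set A alone, a split chosen after seeing the data, with 4 HFrD against 2 Norm libraries, Atp2a2 passed (log2 1.41, adjusted p = 0.0343), against 0.934% of all genes. With the library set as a term it did not (log2 1.41, adjusted p = 0.211), nor in the fit of all 6 groups with the set (log2 1.25, adjusted p = 0.357). Casq1 (log2 -0.50) and Pvalb (log2 -0.42) were lower in every HFrD library than in every Norm library, as 16.2% of genes were separated in either direction. Neither passed (adjusted p = 0.162 for Casq1 and 0.173 for Pvalb), and with the set as a term each was at log2 -0.23. Myh7 was 21.3 ± 3.64 in HFrD and 5.38 ± 4.92 in Norm.

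The genotype by diet interaction gave 0 of 9 members, 0 at an unadjusted p under 0.05, against 0.00% and 10.3% of all genes, with Trdn the largest at 2.27 (adjusted p = 0.451) and 0.06 with the set as a term. Sln was low throughout this cohort. It ran from 0.240 to 5.51 FPKM over the 24 libraries, read from 6 to 135 reads, with its highest value in a Hypo ChMKO library. Pln lay between 0.0459 and 0.714, from 2 to 40 reads.

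Slow shares were computed within each library. Atp2a2 made up 0.590% ± 0.347 of the pump pair in Norm F/F, 1.25% ± 0.684 in Hypo F/F and 1.31% ± 0.345 in HFrD F/F, and 0.50% ± 0.325, 1.14% ± 0.656 and 1.18% ± 0.461 in ChMKO. Casq2 made up 1.01% ± 0.241, 1.84% ± 0.847 and 1.74% ± 0.354 of its pair in F/F, and 0.820% ± 0.177, 2.27% ± 1.14 and 1.48% ± 0.495 in ChMKO. Even the highest of these, 3.8% for Casq2 in a Hypo ChMKO library, was below the lowest F/F SOL share of 8.09%, which comes from a separately normalized table.

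Within the 24 libraries the genes most like Atp2a2 were Tpm3 (Pearson r = 0.9756), Tnnt1 (0.9736) and Myh7 (0.9670), among 4499 genes. Those most like Pvalb were the member Casq1 (0.9782), the muscle creatine kinase gene Ckm (0.9612) and the adenylate kinase gene Ak1 (0.9609). For Sln they were Tubb6 (0.8645), Capn2 (0.8644) and Hmox2 (0.8432). The points share the library sets, by which Pvalb and Casq1 are separated.

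Of the other calcium genes listed, 0 passed in the hypoxia comparisons, in the HFrD comparison of F/F mice and in the genotype comparisons by limma. At an unadjusted p under 0.05 there were 0 of 53 in Hypo F/F against Norm, where 3.83% of all genes had one, 11 of 53 in Hypo ChMKO (15.1% of all genes) and 15 of 54 in HFrD F/F (23.6%). Across the genotype comparisons there were 0 to 7 of 52 to 54, against 4.63% to 11.1% of all genes. In HFrD against Norm of ChMKO mice, confounded with the sets, 5 of 53 tested rose and 29 fell, where 19.4% of all genes rose and 44.6% fell. After median-of-ratios scaling 13 rose and 19 fell, against 27.9% and 25.9% of all genes. The leading rises were Cacna2d1, the alpha-2-delta subunit of the voltage sensor (log2 1.45), the plasma membrane pump Atp2b1 (1.29) and the calcineurin subunit Ppp3ca (1.22). On the lower side were the triad protein gene Sypl2 (-0.99), the store-operated channel Orai1 (-0.89) and Cacnb1 (-0.72), a further voltage sensor subunit.

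No member passed after overexpression of ChREBP in GC by AAV, and the abundant members differed little. The question is whether more ChREBP changes these genes in adult muscle, and 0 of 10 members passed, while 0.00904% of all genes passed and 2.91% had an unadjusted p under 0.05. Atp2a1 was 8231, 8035, 8810, 9128 and 9514 with GFP and 8132, 9115, 8989, 9258 and 9534 with ChREBP (log2 0.04, interval -0.11 to 0.20). Casq1 differed by 0.01 (interval -0.11 to 0.13), Pvalb by 0.05 (-0.09 to 0.20), Ryr1 by 0.06 (-0.08 to 0.20) and Trdn by 0.11 (-0.01 to 0.22). The intervals of these 5 members reached at most 0.22 on the log2 scale. The interval of Atp2a2 was wider (-0.18, from -1.08 to 0.72), with libraries from 10.2 to 54.6 with GFP and from 11.9 to 40.9 with ChREBP, as were those of Casq2 (-0.16, from -0.66 to 0.35), Pln (-0.14, from -0.37 to 0.09) and Cacna1s (-0.01, from -0.25 to 0.23).

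Sln was the 1 member with an unadjusted p under 0.05 after AAV-ChREBP. It was 0.30, 0.985, 0.299, 1.34 and 1.06 FPKM with GFP and 1.91, 0.344, 4.77, 3.33 and 4.43 with ChREBP. A ChREBP library, number 3, was within the GFP range and the other 4 were above it. The log2 difference was 1.01 (interval 0.24 to 1.77, adjusted p = 1.00), so it did not pass. On log2(FPKM + 1) it met the study's criterion, a log2 change of 1 or more in size with an unadjusted p under 0.05, as did 0.0181% of all genes.

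C2C12 cells held the isoforms in the reverse order of adult muscle. In vector control libraries Atp2a2 was 137, 139, 141 and 143 FPKM and Atp2a1 19.6, 18.9, 19.0 and 17.3, so the slow-type pump gene made up 88.2% ± 0.720 of the pair (SD, n = 4). Casq2 was 46.5, 45.3, 44.3 and 45.1 and Casq1 5.58, 5.05, 5.75 and 6.07, a Casq2 share of 89.0% ± 0.820. Trdn (0.642 ± 0.161), Cacna1s (2.11 ± 0.128), Pvalb (2.35 ± 0.156) and Ryr1 (5.07 ± 0.203) were low. FPKM of a gene does not separate the SERCA2a and SERCA2b transcripts of Atp2a2.

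With ChREBP-OE, 6 of the 8 members tested passed, 5 higher and 1 lower, against 30.5% of all genes tested (16.3% higher and 14.1% lower). The pumps moved in opposite directions. Atp2a1 rose to 23.9, 22.5, 21.9 and 24.2 (log2 0.29, SE 0.05, adjusted p = 0.000652), and Atp2a2 fell to 125, 124, 125 and 125 (log2 -0.17, SE 0.03, adjusted p = 0.000424). The Atp2a2 share of the pair was then 84.4% ± 0.610, against 88.2% in control, and no library overlapped.

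The slow share of the calsequestrin pair shifted the other way. Casq2 rose to 61.5, 62.8, 60.4 and 60.9 (log2 0.43, adjusted p = 7.79e-07), whereas Casq1 was 6.08, 4.70, 4.29 and 5.06 and did not pass (log2 -0.14, adjusted p = 0.237). The Casq2 share of the pair was 92.4% ± 1.05, against 89.0% in control. The slow-type share went down for the pump and up for calsequestrin in the same libraries.

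Among the release genes, Ryr1 rose from 5.20, 5.09, 5.22 and 4.78 to 6.75, 6.64, 6.90 and 6.69 (log2 0.35, adjusted p = 0.000113). Trdn rose from 0.430, 0.680, 0.640 and 0.820 to 1.57, 1.40, 1.35 and 1.42 (log2 0.57, adjusted p = 0.000308). Cacna1s was 2.28, 2.11, 2.09 and 1.97 in control and 2.66, 2.42, 2.25 and 2.60 with ChREBP-OE, with overlap, and did not pass (log2 0.16, adjusted p = 0.0626). Pvalb rose from 2.56, 2.22, 2.24 and 2.36 to 5.87, 4.30, 3.93 and 4.2, 1.95-fold by the means (log2 0.73, adjusted p = 0.000169). By the means Trdn differed more, 2.23-fold, while its log2(FPKM + 1) change was the smaller, since it lay near 1 FPKM.

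The 6 members that passed had no overlap between the arms, as had 31.3% of all genes, and 0 of the 8 met the study's criterion as applied here to log2(FPKM + 1), against 0.384% of all genes. That scale understates Trdn, whose means differed 2.23-fold. The pump inhibitors were near absent. Sln was listed at 0, 0.48, 0 and 0.690 in control and at 0 in all 4 ChREBP-OE libraries, and Pln was at most 0.0800. Each arm was 1 line, so a difference between lines and an effect of ChREBP cannot be told apart, and the p-values measure the spread between libraries.

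**Figure D5:**
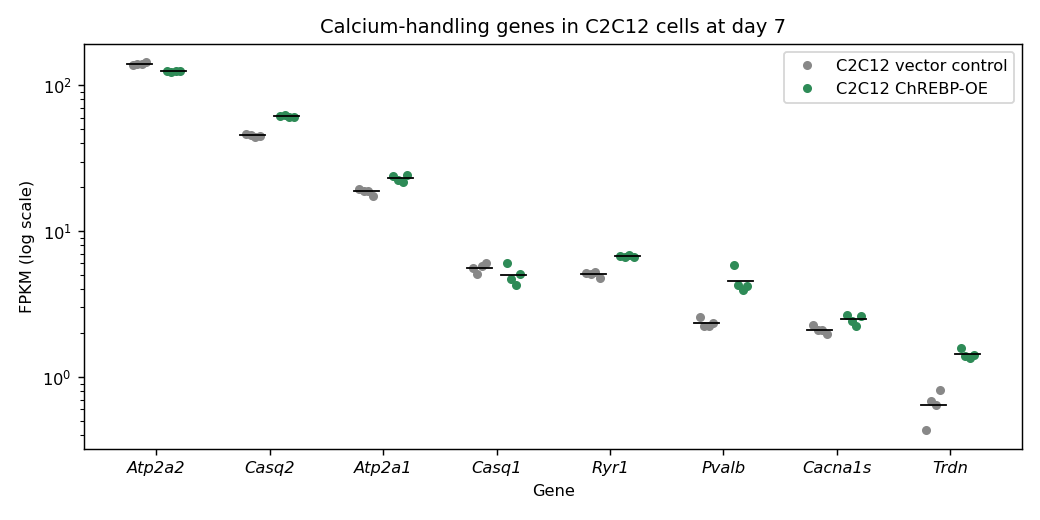
FPKM (log axis) of the 8 members tested in the 4 vector control and 4 ChREBP-OE C2C12 libraries, with 1 point per library and lines at the means. Atp2a2 (124 to 143) lies above Atp2a1 (17.3 to 24.2) and Casq2 (44.3 to 62.8) above Casq1 (4.29 to 6.08) in every library.

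Of 14 other triad and release genes tested in these cells, 8 rose, 0 fell and 6 did not pass, where 16.3% of all genes rose and 14.1% fell. They had a median log2 fold change of 0.31 against 0.00 over all genes. They were led by the cation channel genes Tmem38a (log2 0.61, adjusted p = 1.24e-07) and Tmem38b (0.43) and by Hrc, which encodes a calcium-binding protein of the store (0.56). Over all 62 listed genes, 49 were tested and 17 passed, against 30.5% of all genes. Of these 15 rose and 2 fell, Ppp3ca (-0.31) and the IP3 receptor Itpr3 (-0.12). Fiber-type myosins in the same cells were mixed. Myh1 was at 10.3 in control and 6.98 with ChREBP-OE, Myh4 at 4.73 and 3.61, and Myh2 at 0.31 and 0.21. Myh7 went the other way, at 0.772 and 1.13. The 6 cardiomyocyte markers summed to 86.9 to 99.5 in control and 113 to 128 with ChREBP-OE, but not all rose. Tnni3 averaged 0.75 in control and 0.54 with ChREBP-OE, and Myh6 0.0675 and 0.115, so they made up little of the sum. Nppa and Ryr2 were listed at 0 with ChREBP-OE. The 5 smooth muscle markers summed to 433 to 456 and 769 to 797. The part of either marker list in the member changes was not tested.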

How the data were processed

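Expression was deposited by the authors as FPKM per gene in 4 tables. Per the labels and the study's methods, reads were trimmed with fastp 0.18.0, ribosomal reads were removed with Bowtie2 2.2.8, and alignment and quantification used HISAT2 2.1.0, StringTie 1.3.1 and RSEM. The submitters' processing notes name GRCm39, but positions in the untreated GC and SOL table are those of GRCm38. The AAV table also holds the authors' fold changes, p-values, false discovery rates and 2 group means, which were not used. The unit of the AAV and C2C12 values was taken from the study's methods and the values.

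The members and gene lists were chosen with earlier results of these data known. The rule for named genes took all 10 members, with values printed for those a comparison turns on, and up to 3 of the largest rises and of the largest falls among 62 other calcium genes where any passed. Groups were compared with limma 3.58.1 (lmFit and eBayes with trend, R 4.3.3) on log2(FPKM + 1), keeping genes that averaged 0.5 FPKM or more in the libraries compared, in 13 comparisons and 3 interactions. Recovered reads are FPKM of the hypoxia and diet table converted with its gene lengths and library depth, whole within 0.05 reads. The 2-group fit was also run on simulated data with planted log2 changes of 1 or 2. These data had independent noise for each gene and no library sets, so they do not show recovery of smaller changes or across sets. Depth was 14473170 to 23460515 reads there. Replicates correlated within groups and no 2 libraries were identical. Whether the C2C12 and AAV replicates were separate cultures or animals is not stated in the labels. The study's methods give 5 mice for each AAV group and a minimum of 4 independent biological replicates for each RNA-seq group. GC and SOL libraries share numbers, but the sources used here do not state that these mark the same mouse. The title of 1 F/F SOL library gives another number than its column, and it was used as number 69. Same-numbered AAV libraries correlated at 0.21 to 0.49, which treats the numbers as pairs. Alternatives were another pseudocount (0.1), other filters (none, or 5 FPKM), median-of-ratios scaling, limma-voom, a replicate block and leaving out each library. Library set terms and fits within a set were chosen after seeing the data.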

Additional observations from a re-analysis of the deposited data

Results flagged for a closer look

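Of 139 member and group combinations of 4 or 5 libraries, 9 held a library far from the rest of its group by Dixon's test, which chance does in about 1 of 20. GC library 72 of ChMKO mice stood apart in a pair of members. Its Atp2a2 was 46.2 FPKM, with the others at 8.61 to 13.7, and its Pvalb was 5141, with the others at 6054 to 6230. That library also had the highest Myh7 of its group, 36.2.

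In Norm ChMKO GC, 1 library also stood apart in a pair of members, with Pvalb at 10146 (others 8369 to 8608) and Ryr1 at 208 (others 156 to 164). Trdn was 4.57 in 1 Hypo ChMKO library, with the others at 12.0 to 13.9. Cacna1s was 166 in SOL library 59 of ChMKO mice, with the others at 140 to 145.

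The remaining flags were on inhibitors near the detection limit. Sln was 0.969 in 1 HFrD ChMKO library (others 0.317 to 0.386). Pln was 1.496 in AAV-GFP library 3 (others 0.808 to 0.950), and 0.06 in ChREBP-OE library 2 of C2C12, where the others were listed at 0. What set these libraries apart was not tested.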

How the results depend on the processing

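Of the member fold changes under alternatives other than leaving out a library, 804 kept their direction and side of the threshold, 7 lost and 9 gained a call, 1 reversed and 61 changed sign while past the threshold in neither. Leaving out a library gave 1395, 15, 4, 0 and 140. The numbers of members past the threshold that moved were these. For Hypo against Norm in ChMKO mice, 1 became 0 without a filter on low values and 3 with all 6 groups and the library set, and 0 to 1 when 1 library was left out. For Hypo against Norm in F/F mice, 0 became 2 in set A alone. For HFrD against Norm, 0 became 1 in F/F set A alone, and 4 became 0 in ChMKO mice with all 6 groups and the set, where Trdn reversed to -0.085. The genotype by diet count ran from 0 to 1 when a library was left out, Trdn passing without 1 Norm F/F library of set B (3.15, adjusted p = 0.0445). The cause of these was not tested, except that the set term removes what is shared by a set. Leaving out 1 library gave 9 to 10 members in SOL against GC of ChMKO mice, 3 to 4 in HFrD against Norm of ChMKO mice and 6 to 7 in C2C12, where Casq1 passed without ChREBP-OE library 1 (adjusted p = 0.0394) and Cacna1s without library 3 (0.0440). Ryr1 in HFrD against Norm of ChMKO mice (adjusted p = 0.0517) passed with a pseudocount of 0.1, a minimum of 5 FPKM, limma-voom, median-of-ratios scaling or without the Norm library at 208 FPKM (0.000971 to 0.0494). Median-of-ratios scaling moved the median of all genes by over 0.1 in SOL against GC (0.18 to 0.01 in F/F, 0.15 to 0.01 in ChMKO) and in HFrD against Norm (-0.10 to 0.00 in F/F, -0.17 to -0.03 in ChMKO), and the share of calls that were higher from 75.1% to 49.96% and 70.7% to 49.7% in SOL against GC of F/F and ChMKO mice, and from 30.3% to 51.9% for HFrD and 28.4% to 41.1% for Hypo in ChMKO mice.

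With the replicate block, member calls in SOL against GC, after AAV and in C2C12 stayed as in the main fits, with a single exception. Trdn in ChMKO SOL against GC lost its call (adjusted p = 0.0626). In C2C12, same-numbered libraries did not deviate together (-0.09 to 0.18). Deviations of same-numbered GC and SOL libraries correlated at -0.02 to 0.32 in F/F and at 0.02 to 0.05 in ChMKO mice, and not every library correlated best with its own number.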
